A study of Mus musculus with 15 samples.

Results

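The 10 genes described here, Meg3, Rian, Mirg, Dlk1, Igf2, H19, Peg3, Ndn, Plagl1 and Grb10, are imprinted genes, chosen by symbol from the 32735 genes of the count table. Earlier results on their levels in these libraries were known when they were chosen, so their levels and fold changes are given as a description, with no test. RNA was sequenced from 5 populations of brain cells sorted from hGFAP::GFP mice, whose human GFAP promoter drives GFP in astrocytes and neural stem cells, and cells of male and female animals were pooled. GCEPB+ cells were GFP+ PDGFRβ+ CD133+ EGFR+ CD24-, GCEPB- cells were GFP+ PDGFRβ- CD133+ EGFR+ CD24-, GCPB+ cells were GFP+ PDGFRβ+ CD133+ EGFR- CD24-, and GPB+ cells were GFP+ PDGFRβ+ CD133- EGFR- CD24-. CTX cells were GFP+ astrocytes of the cortex, and the other 4 populations came from the ventricular-subventricular zone (V-SVZ), the stem cell niche along the wall of the lateral ventricle. The age of the animals was not given in the sources used here. Each population had 3 libraries, 15 in all, of 12466038 to 33665687 counts.

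Imprinted genes are transcribed mainly from the copy inherited from 1 parent, because a DNA methylation mark set in the egg or the sperm is kept through later cell divisions. Many of them control growth, and several, Dlk1 and Igf2 among them, are known to act on neural stem cells of the V-SVZ. Meg3, Rian and Mirg are long noncoding RNAs (lncRNAs) of the Dlk1-Dio3 region of chromosome 12 and come from the maternal copy. Dlk1, from the same region, comes from the paternal copy in most tissues. H19 is maternal too, Igf2, Peg3, Ndn and Plagl1 are paternal, and Grb10 is maternal in most tissues and paternal in neurons. These libraries carry no information on the parent of origin, so all values below are total RNA of a gene. In bulk RNA, fewer cells that express a gene and less RNA per cell cannot be told apart.

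Levels are CPM, counts normalised by library size and trimmed-mean factors, in each library or as mean ± SD over n = 3 libraries, unless FPKM, the authors' length-scaled unit, is named. Log2 fold changes are fitted on the counts by edgeR, first group over second, ± SE. A floor of 3 counts in a library corresponded to 0.102 to 0.246 CPM. The gates were checked on the genes of the sorted proteins. Egfr averaged 537 ± 75.1 CPM in GCEPB+, 797 ± 48.2 CPM in GCEPB-, 155 ± 52.4 CPM in GCPB+, 171 ± 25.6 CPM in GPB+ and 168 ± 4.44 CPM in CTX. Pdgfrb averaged 45.9 ± 18.2 CPM in GCEPB+, 2.37 ± 1.06 CPM in GCEPB-, 342 ± 65.8 CPM in GCPB+, 357 ± 157 CPM in GPB+ and 183 ± 53.3 CPM in CTX. Prom1, the gene of CD133, did not follow its gate in all groups: it averaged 66.8 ± 25.1 CPM in GCEPB+, 48.8 ± 7.34 CPM in GCEPB- and 153 ± 24.6 CPM in GCPB+, all gated CD133+, against 28.4 ± 5.48 CPM in GPB+ and 56.0 ± 18.9 CPM in CTX. Gfap averaged 188 ± 92.5 CPM in GCEPB+, 10.975 ± 3.45 CPM in GCEPB-, 210.4 ± 58.8 CPM in GCPB+, 121 ± 33.6 CPM in GPB+ and 38.7 ± 15.4 CPM in CTX. Cd24a was read at 75.0 ± 18.8 CPM in GCEPB-, although CD24 was gated out there, and at 16.4 ± 4.58 CPM or less in the other groups. The summed level of 12 astrocyte markers was 10507 to 16623 CPM in GCEPB+, 4121 to 4414 CPM in GCEPB-, 56450 to 64669 CPM in GCPB+, 50585 to 58117 CPM in GPB+ and 49794 to 60081 CPM in CTX. That of 12 cell cycle genes was 2321 to 3397 CPM in GCEPB+, 5075 to 6266 CPM in GCEPB-, 94.6 to 123.6 CPM in GCPB+, 71.1 to 91.2 CPM in GPB+ and 45.3 to 56.6 CPM in CTX.

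Meg3, an lncRNA known as a growth suppressor (mm10 chromosome 12, 109540996 to 109571729) and maternally expressed, ranged widely across the gates. It measured 69.3, 88.4 and 99.4 CPM in GCEPB+, 12.7, 8.52 and 9.78 CPM in GCEPB-, 239, 362 and 415 CPM in GCPB+, 451, 442 and 768 CPM in GPB+, and 8.80, 3.53 and 1.21 CPM in CTX. The order GPB+, GCPB+, GCEPB+, GCEPB- held with no overlap between neighbouring groups, and GCEPB- and CTX overlapped. Its mean was highest in the EGFR-negative V-SVZ cells and lowest in CTX, while the sums of astrocyte markers overlapped between these groups. The log2 fold change was 3.05 ± 0.45 in GCEPB+ against GCEPB-, -1.98 ± 0.43 in GCEPB+ against GCPB+, -0.71 ± 0.41 in GCPB+ against GPB+ and 6.98 ± 0.55 in GPB+ against CTX. Without CTX replicate 1, the library with the most Meg3 in that group, the last value was 7.95. Of 5 fibroblast and meningeal markers tested, 1 was lower in GCPB+ than in GPB+, against 0.00613% of all genes. The sum over that list was 77.4 to 80.3 CPM in GCPB+ and 98.2 to 117 CPM in GPB+, and its part in the level of Meg3 was not tested. Per length, Meg3 was the most abundant of the 10 genes in GPB+, at 214 ± 62.4 FPKM, and in GCPB+, at 133 ± 26.5 FPKM.

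Rian (chromosome 12, 109603945 to 109661711), an lncRNA that hosts small nucleolar RNAs and miRNAs, followed Meg3 at a lower level. It measured 2.46, 4.76 and 7.40 CPM in GCEPB+, 0.928, 0.396 and 0.845 CPM in GCEPB-, 4.75, 11.5 and 14.6 CPM in GCPB+, 12.3, 15.8 and 22.8 CPM in GPB+, and 0.0715, 0.461 and 0 CPM in CTX. GCEPB+ lay above GCEPB- in all libraries, while the ranges of GCEPB+ and GCPB+, and of GCPB+ and GPB+, overlapped. The log2 fold change was 2.71 ± 0.68 in GCEPB+ against GCEPB-, -1.08 ± 0.62 in GCEPB+ against GCPB+ and -0.72 ± 0.61 in GCPB+ against GPB+. In CTX only 7 Rian counts were read in all, against 981 in GPB+, and the ratio of their normalised counts was 126 (exact binomial 95% interval 61.05 to 315, covering counting error only). The fitted log2 fold change of GPB+ against CTX, 6.75 ± 0.86, was 8.99 without CTX replicate 2, which held 6 of those counts, and 5.98 without CTX replicate 3.

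Mirg (chromosome 12, 109729764 to 109749457) is an lncRNA that hosts a cluster of miRNAs. Its summed counts were 21 in GCEPB+, 20 in GCEPB-, 89 in GCPB+, 59 in GPB+ and 0 in CTX. All 3 GCPB+ libraries, at 1.18 to 1.72 CPM, lay above all GCEPB+ libraries, at 0.0808 to 0.582 CPM, with a log2 fold change of -1.99 ± 0.96 in GCEPB+ against GCPB+ that was -2.62 without GCEPB+ replicate 2. GPB+ spread from 0.200 to 1.86 CPM and overlapped both. The mean of GPB+ was 5.24-fold the mean of the CTX floors of 3 counts per library. GPB+ replicate 1, at 0.200 CPM, lay under the floors of CTX replicates 1 and 2, at 0.215 and 0.230 CPM.

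These 3 lncRNAs and H19 each contain miRNA hairpins, and the mature sequences below are shown because their hairpins lie inside the transcripts whose levels are described. RefSeq (GRCm38.p6) placed 2 hairpins within Meg3, 3 within Rian, 14 within Mirg and 1 within H19. The 26 mature miRNAs of Mirg carried 25 seeds, and miR-453 and miR-496a-5p shared one. Capitals mark the seed, bases 2 to 8, by which a miRNA pairs with its targets.
mmu-miR-770-5p, in Meg3: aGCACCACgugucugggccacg
mmu-miR-370-3p, in Rian: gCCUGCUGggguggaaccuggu
mmu-miR-377-3p, in Mirg: aUCACACAaaggcaacuuuugu
mmu-miR-453, in Mirg: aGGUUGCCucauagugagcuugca
mmu-miR-496a-5p, in Mirg: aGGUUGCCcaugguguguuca
mmu-miR-675-5p, in H19: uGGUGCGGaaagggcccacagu

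Reads from mature miRNAs are not captured by a kit that primes on poly(A) tails, so the levels above are those of the host transcripts. Of 58 small RNA rows of the count table placed between Dlk1 and Dio3, 14 had any count, with sums over 3 libraries of 0 in GCEPB+, 1 in GCEPB-, 20 in GCPB+, 12 in GPB+ and 0 in CTX. Mir377 held 8 counts in GCPB+ and 2 in GPB+. The rows for Mir675, inside H19, and Mir483, inside Igf2, were at 0 in all 15 libraries. Such reads may belong to the host RNA, since hairpin and host overlap.

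Rian did not keep a fixed proportion to Meg3. Per 100 Meg3 counts, 5.46 ± 1.95 Rian counts were read in GCEPB+, 6.86 ± 2.03 in GCEPB-, 2.89 ± 0.803 in GCPB+ and 3.09 ± 0.443 in GPB+. The EGFR-positive groups spanned 3.55 to 7.44 in GCEPB+ and 4.65 to 8.64 in GCEPB-, and the EGFR-negative groups 1.99 to 3.53 in GCPB+ and 2.72 to 3.58 in GPB+. GCEPB+ replicate 1, at 3.55, was the only EGFR-positive library to reach the range of the EGFR-negative ones. CTX held too few counts of either RNA for a ratio. Across all 15 libraries, log2(CPM + 0.5) of Meg3 correlated with that of Rian at a Pearson r of 0.97, with Dlk1 at 0.90 and with Mirg at 0.79. Outside the region, Meg3 correlated with Peg3 at 0.80, Ndn at 0.67, Plagl1 at 0.49, Grb10 at 0.12, Igf2 at 0.03 and H19 at -0.22. High values were thus not limited to genes of the region. These values describe libraries that fall into 5 groups and share their normalisation.

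**Figure D1:**
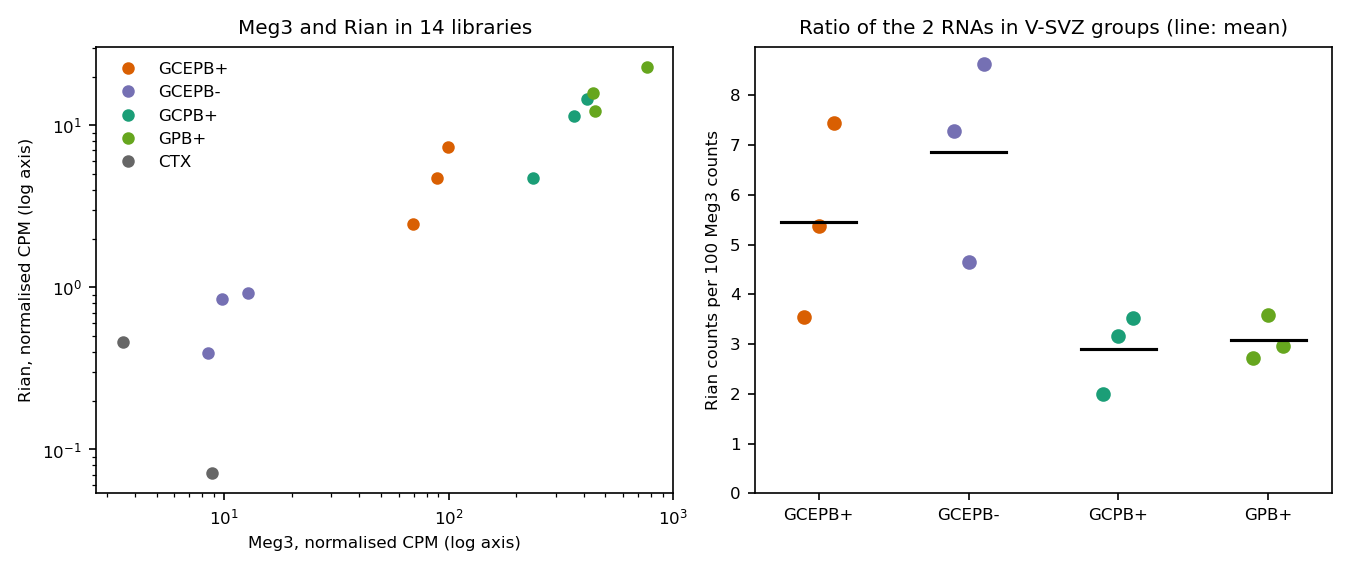
The left panel plots Meg3 against Rian in normalised CPM on log axes for the 14 libraries in which both had a count, coloured by group. The right panel plots Rian counts per 100 Meg3 counts for the 3 libraries of each V-SVZ group, with the mean as a line, from 6.86 in GCEPB- to 2.89 in GCPB+.

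Dlk1 (chromosome 12, 109452823 to 109463336), a membrane-bound and secreted relative of Notch ligands, had its highest levels in the V-SVZ groups without EGFR. It measured 0.404, 0.388 and 0.414 CPM in GCEPB+, 0, 0.396 and 0 CPM in GCEPB-, 4.83, 3.85 and 6.61 CPM in GCPB+, 5.91, 7.71 and 7.02 CPM in GPB+, and 0.0715, 0.0768 and 0 CPM in CTX. All EGFR-negative V-SVZ libraries lay above all others, and GCPB+ and GPB+ overlapped. The log2 fold change was -3.65 ± 0.87 in GCEPB+ against GCPB+ and -0.43 ± 0.76 in GCPB+ against GPB+. Beside the first of these, 12 of 12 astrocyte, 3 of 10 oligodendrocyte, 2 of 7 pericyte and smooth muscle and 2 of 5 fibroblast and meningeal markers tested were lower in GCEPB+ than in GCPB+, and 2 of the last 5 were higher. Of all genes tested, 18.0% were lower and 18.1% higher there. The pericyte and smooth muscle sum was 8.73 to 15.3 CPM in GCEPB+, where Kcnj8, Vtn, Ndufa4l2 and Higd1b were at 0, and 18.5 to 30.4 CPM in GCPB+. The part of these lists in the levels of Meg3, Mirg and Dlk1 was not tested. In GPB+ 384 counts were read, against 2 in CTX, a ratio of normalised counts of 173 (exact binomial 95% interval 47.6 to 1433). GCEPB- held 6 counts, all in replicate 2, against 26 in GCEPB+. The fitted value of GCEPB+ against GCEPB-, 1.80 ± 0.98, was 6.07 without that library, 1.16 without GCEPB- replicate 1 and 1.13 without GCEPB- replicate 3. Per length, Dlk1 stayed low even where it was highest, at 1.18 ± 0.152 FPKM in GPB+, against 214 FPKM for Meg3 there.

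The promoters of Meg3 and Dlk1 are shown as examples of genes with their highest means in GPB+ and GCPB+, which Rian, Mirg and Peg3 had too. Each sequence is the window of 300 bases that runs up to and just past the RefSeq start (GRCm38.p6, the assembly of mm10), 5′ to 3′ on the strand of the gene. Capitals mark 4 motifs found by exact match on both strands: the GC box GGGCGG, the CCAAT box, the TATA box TATAAA and the cAMP response element TGACGTCA. Of 32851 such promoters from RefSeq, 35.7% held the first, 37.4% the second, 13.6% the third and 1.79% the last.
Meg3, chr12:109540746-109541045, plus strand: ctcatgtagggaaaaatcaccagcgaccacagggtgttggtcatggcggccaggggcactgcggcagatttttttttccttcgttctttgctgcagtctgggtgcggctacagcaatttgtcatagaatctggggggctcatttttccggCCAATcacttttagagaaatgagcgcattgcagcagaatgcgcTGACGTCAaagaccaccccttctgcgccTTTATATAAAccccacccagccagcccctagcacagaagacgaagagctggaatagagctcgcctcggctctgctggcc
Dlk1, chr12:109452573-109452872, plus strand: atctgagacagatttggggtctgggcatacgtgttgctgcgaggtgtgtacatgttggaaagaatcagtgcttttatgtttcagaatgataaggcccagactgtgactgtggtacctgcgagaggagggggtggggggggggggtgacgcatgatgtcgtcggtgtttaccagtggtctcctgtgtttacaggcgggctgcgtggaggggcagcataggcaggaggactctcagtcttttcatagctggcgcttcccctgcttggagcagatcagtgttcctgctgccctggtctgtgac

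The Meg3 window held 1 CCAAT box, 1 cAMP response element and 2 TATA box matches on opposite strands that overlap each other. It held 13 CpG sites, where the median of all promoters was 7. Another Meg3 promoter in RefSeq, inside the gene and not shown, held 1 CpG site and none of the 4 motifs. The Dlk1 window held 9 CpG sites and none of the 4 motifs. Of the windows not shown, that of Rian held 0 CpG sites and none of the 4 motifs, and that of Mirg 10 CpG sites and 1 CCAAT box. A match describes the letters of the window and is no measure of binding.

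The remaining genes of the region added little RNA. Rtl1, a retrotransposon-derived gene important in the placenta, had 0 to 12 counts per library and did not pass the count filter. Dio3, which encodes a deiodinase that inactivates thyroid hormone, had 94 counts in GCEPB+, 37 in GCEPB-, 47 in GCPB+, 89 in GPB+ and 0 in CTX, and replicate 1 of GPB+ was at 0 too. Dio3 belongs to the list of other imprinted genes tested below.

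**Figure D2:**
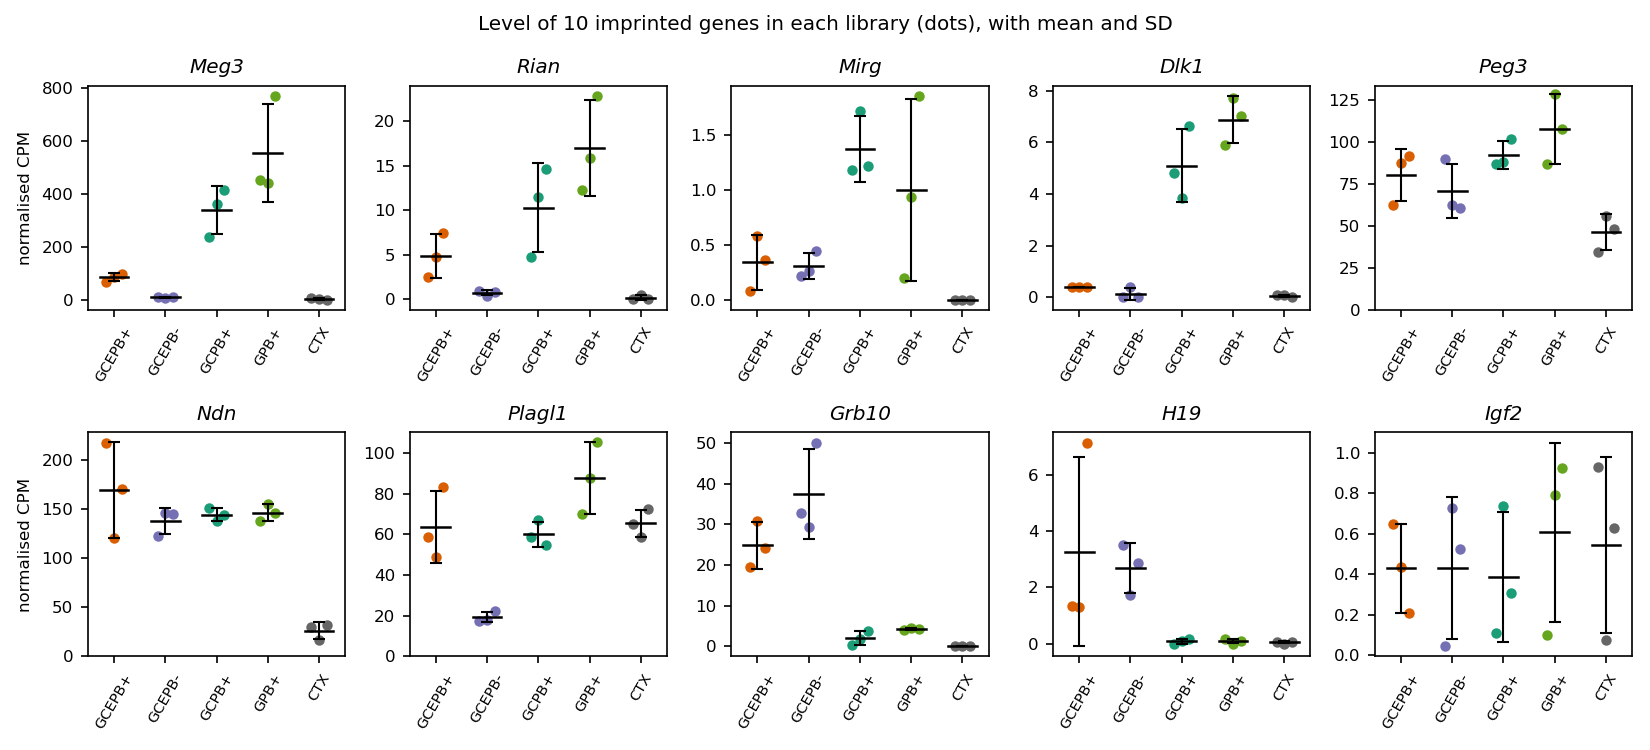
Each panel plots normalised CPM of 1 gene on a linear axis of its own, with a dot for each library, a line for the mean and bars for the SD (n = 3). Meg3, Rian and Dlk1 are highest in GPB+ and GCPB+, Grb10 and H19 in the EGFR-positive groups GCEPB+ and GCEPB-, and Ndn is lower in CTX than in all V-SVZ groups.

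Between the EGFR-positive and the EGFR-negative V-SVZ groups, Grb10 and H19 showed the opposite pattern to Meg3 and Dlk1. Grb10 (chromosome 11, 11930499 to 12037420), an adaptor that restrains insulin and IGF receptor signalling, measured 19.5, 30.8 and 24.1 CPM in GCEPB+, 32.7, 29.4 and 50.1 CPM in GCEPB-, 0.368, 1.89 and 3.87 CPM in GCPB+, 3.91, 4.46 and 4.15 CPM in GPB+, and 0 in all 3 CTX libraries. All GCEPB+ and GCEPB- libraries lay above those of the other 3 groups, and GCEPB+ and GCEPB- overlapped. The log2 fold change was 3.59 ± 0.57 in GCEPB+ against GCPB+ and -0.59 ± 0.51 in GCEPB+ against GCEPB-. Without GCPB+ replicate 3, the highest of its group, the first of these was 4.58. In GCPB+ against GPB+ the value was -1.02 ± 0.54, and -2.01 without that same library. The mean of GPB+ was 21.95-fold the mean of the CTX floors of 3 counts per library.

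The first of 2 Grb10 promoters in RefSeq is shown because it stood at the CpG-rich end of all promoters, with 45 CpG sites, more than 98.1% of them had, and 5 GC box matches. The other, inside the gene, held 9 CpG sites and none of the 4 motifs. The counts do not tell which of the 2 was in use.
Grb10, chr11:12037371-12037670, minus strand: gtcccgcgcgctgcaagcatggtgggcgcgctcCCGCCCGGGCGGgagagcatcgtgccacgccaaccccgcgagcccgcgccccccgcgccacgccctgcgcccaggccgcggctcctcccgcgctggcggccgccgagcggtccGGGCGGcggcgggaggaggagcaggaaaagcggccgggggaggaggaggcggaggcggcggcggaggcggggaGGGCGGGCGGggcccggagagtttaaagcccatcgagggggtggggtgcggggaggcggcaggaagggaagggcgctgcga

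H19 (chromosome 7, 142575530 to 142578146), an lncRNA of the Igf2 region made from the maternal copy, was detected well above the floor in the EGFR-positive cells. It measured 1.33, 1.31 and 7.14 CPM in GCEPB+ and 3.49, 1.72 and 2.86 CPM in GCEPB-. In the other groups it had 0 to 5 counts per library, 6 in GCPB+, 5 in GPB+ and 2 in CTX in all, at or near the floor, so no fold is given among these. The ratio of normalised counts of GCEPB+ to GCPB+ was 35.1 (exact binomial 95% interval 15.8 to 96.8, counting error only). The fitted log2 fold change was 5.16 ± 1.13. It was 3.86 without GCEPB+ replicate 3, which held 138 of the 198 GCEPB+ counts, 6.51 without GCPB+ replicate 3 and 4.54 without GCPB+ replicate 1. Against GCEPB- the value was 0.27 ± 0.89, and -1.03 without GCEPB+ replicate 3, so that library set the direction.

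Grb10 and H19 were higher in the EGFR-positive groups than in the others, as were the sums of the cell cycle genes above and of neuroblast markers. Between GCEPB+ and GCEPB-, both sums were higher in GCEPB-, while the ranges of Grb10 and of H19 overlapped. The mean of H19 was 3.26 CPM in GCEPB+ and 2.69 CPM in GCEPB-. The summed level of 12 neuroblast markers was 96.5 to 151 CPM in GCEPB+, 320 to 477 CPM in GCEPB-, 28.3 to 45.1 CPM in GCPB+, 32.9 to 37.3 CPM in GPB+ and 10.1 to 14.05 CPM in CTX. Dlx6 was at 0 in GCPB+, and Dlx2, Dlx5, Dlx6 and Sp9 were at 0 in CTX. The part of either in the levels of Grb10 and H19 was not tested. Across the 15 libraries Grb10 and H19 correlated at an r of 0.83.

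Igf2 (chromosome 7, 142650768 to 142666816), a growth factor that acts in the embryo and that choroid plexus and meninges secrete in the adult brain, was barely detected. It had 1 to 21 counts per library, with means of 0.430 ± 0.220 CPM in GCEPB+, 0.431 ± 0.350 CPM in GCEPB-, 0.384 ± 0.321 CPM in GCPB+, 0.607 ± 0.444 CPM in GPB+ and 0.545 ± 0.433 CPM in CTX. All 5 ranges overlapped, and the means differed by less than the spread between libraries. The sum of 10 choroid plexus markers was 2.95 to 15.9 CPM in GCEPB+, 4.36 to 6.52 CPM in GCEPB-, 1.95 to 3.32 CPM in GCPB+, 4.54 to 9.72 CPM in GPB+ and 3.73 to 18.0 CPM in CTX, with Clic6 at 0 in all but CTX. That of 10 fibroblast and meningeal markers, which include Pdgfra, was 9.74 to 20.9 CPM in GCEPB+, 9.46 to 11.2 CPM in GCEPB-, 77.4 to 80.3 CPM in GCPB+, 98.2 to 117 CPM in GPB+ and 49.5 to 75.3 CPM in CTX. Of these, Aldh1a2 was at 0 in 4 groups and Lum in 4. Igf2r, the receptor that takes up and degrades IGF2, was read in all libraries, at 13.6 to 38.0 CPM. Cdkn1c, an inhibitor of the cell cycle from the neighbouring imprinted cluster, measured 5.02 to 7.73 CPM in GCEPB-, against at most 1.94 CPM elsewhere, and passed the test in no comparison (adjusted p from edgeR 0.215 in GCEPB+ against GCEPB- and 0.0663 in GCEPB+ against GCPB+).

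Plagl1 (chromosome 10, 13060504 to 13131695), a zinc finger transcription factor that regulates other imprinted genes, was low in 1 population only. It measured 58.5, 49.1 and 83.2 CPM in GCEPB+, 17.6, 18.2 and 22.3 CPM in GCEPB-, 58.6, 66.9 and 54.9 CPM in GCPB+, 70.1, 87.8 and 105.7 CPM in GPB+, and 65.2, 58.7 and 72.3 CPM in CTX. GCEPB- lay below the other 4 groups in all libraries. The log2 fold change was 1.72 ± 0.22 in GCEPB+ against GCEPB-, 0.08 ± 0.21 in GCEPB+ against GCPB+, -0.55 ± 0.22 in GCPB+ against GPB+ and 0.43 ± 0.22 in GPB+ against CTX. Unlike Meg3, Plagl1 thus stood in the cortical astrocytes at a level within the range of the V-SVZ groups that carry PDGFRβ. Meg3, Rian and Plagl1 were higher in GCEPB+ than in GCEPB- beside all 12 astrocyte markers and 6 of 10 markers of mature oligodendrocytes. The oligodendrocyte sum was 305 to 1141 CPM in GCEPB+, 128 to 180 CPM in GCEPB-, 1334 to 1861 CPM in GCPB+, 605 to 977 CPM in GPB+ and 255 to 764 CPM in CTX, with none of its 10 markers at 0 in any group. Of 9 microglial markers tested, 3 were higher too, with a sum over 10 markers of 36.6 to 83.8 CPM in GCEPB+ and 8.98 to 29.3 CPM in GCEPB-, where Aif1 and Trem2 were at 0. Higher as well were 2 of 10 ependymal, 2 of 5 fibroblast and meningeal and 1 of 8 mature neuron markers, while 2 of 11 neuroblast and 3 of 12 cell cycle markers were lower. Of all genes tested, 9.28% were higher and 1.85% lower. The mature neuron sums overlapped, at 47.8 to 60.2 CPM in GCEPB+ and 40.6 to 54.8 CPM in GCEPB-. The part of all these marker lists in the levels of Meg3, Rian and Plagl1 was not tested.

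Peg3 and Ndn differed little within the V-SVZ, with log2 fold changes between -0.22 and 0.30, and had their lowest levels in the cortex. Ndn (chromosome 7, 62348277 to 62349927), which encodes necdin, a MAGE protein that slows the cell cycle in neural cells, measured 217, 121 and 171 CPM in GCEPB+, 122, 146 and 145 CPM in GCEPB-, 151, 138 and 145 CPM in GCPB+, 138, 155 and 146 CPM in GPB+, and 29.97, 16.6 and 32.2 CPM in CTX. All V-SVZ libraries lay above all CTX libraries, and the V-SVZ groups overlapped. The log2 fold change was 2.47 ± 0.25 in GPB+ against CTX and between -0.02 and 0.30 in the comparisons within the V-SVZ. Per length, Ndn was the most abundant of the 10 genes in GCEPB+, at 85.1 ± 24.5 FPKM, and in GCEPB-, at 70.4 ± 5.17 FPKM.

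Peg3 (chromosome 7, 6705960 to 6730419), a zinc finger protein of the paternal copy, measured 80.6 ± 15.6 CPM in GCEPB+, 71.0 ± 16.2 CPM in GCEPB-, 92.3 ± 8.35 CPM in GCPB+, 107.7 ± 20.9 CPM in GPB+ and 46.4 ± 10.8 CPM in CTX. All GPB+ libraries lay above all CTX libraries, with a log2 fold change of 1.22 ± 0.23. Within the V-SVZ the values were 0.18 ± 0.23 in GCEPB+ against GCEPB-, -0.20 ± 0.23 in GCEPB+ against GCPB+ and -0.22 ± 0.23 in GCPB+ against GPB+. The middle one had the other sign on the scale of log2(FPKM + 1), at 0.09. The Peg3 promoter is shown because it shares the motifs CCAAT, with 2 matches, and TGACGTCA, with 1, with the Meg3 window shown above. It held 13 CpG sites, as many as the Meg3 window.
Peg3, chr7:6730370-6730669, minus strand: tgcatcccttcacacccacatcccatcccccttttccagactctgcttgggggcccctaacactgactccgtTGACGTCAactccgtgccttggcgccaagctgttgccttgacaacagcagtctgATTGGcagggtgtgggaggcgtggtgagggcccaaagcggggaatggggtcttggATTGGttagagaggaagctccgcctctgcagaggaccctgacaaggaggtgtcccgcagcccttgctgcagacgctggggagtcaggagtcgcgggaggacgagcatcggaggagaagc

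Counted over the 10 genes, edgeR at an adjusted p of 0.05 over all genes called 3 higher and 0 lower in GCEPB+ against GCEPB-, where it called 9.28% of the 16302 genes tested higher and 1.85% lower, 11.1% in either direction. In GCEPB+ against GCPB+ it called 2 higher and 2 lower, with 18.1% and 18.0% of all genes, 36.1% in either direction. In GCPB+ against GPB+ it called 0 of the 10, with 0.0245% of all genes higher and 0.00613% lower, 0.0307% in either direction. At an unadjusted p of 0.05 edgeR counted 1 of the 10 there, and DESeq2 called 0 after adjustment and 1 before. In GPB+ against CTX it called 7 higher and 0 lower, with 4.04% and 2.7% of all genes, 6.74% in either direction. Of the marker lists, 5 of 11 neuroblast, 5 of 12 cell cycle and 3 of 10 ependymal markers were higher in GPB+ than in CTX as well. So were 1 of 5 fibroblast and meningeal and 1 of 8 mature neuron markers. Lower were 1 of 7 pericyte and smooth muscle and 1 of 12 astrocyte markers. The fibroblast and meningeal sum was 98.2 to 117 CPM in GPB+ and 49.5 to 75.3 CPM in CTX. The pericyte and smooth muscle sum was 7.76 to 18.2 CPM in GPB+ and 40.7 to 58.5 CPM in CTX. The ependymal sum was 67.9 to 83.5 CPM in GPB+ and 27.3 to 39.4 CPM in CTX, where Tmem212 was at 0, and the part of these lists in the genes' levels was not tested. Since these contrasts were known when the genes were chosen, nothing is read from the counts. All 10 genes passed the count filter, although 6 of them, Rian, Mirg, Dlk1, Igf2, H19 and Grb10, had at least 1 library at or under 3 counts. The 2 comparisons with GCEPB+ share its libraries, as do the 2 with GCPB+ and the 2 with GPB+.

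**Figure D3:**
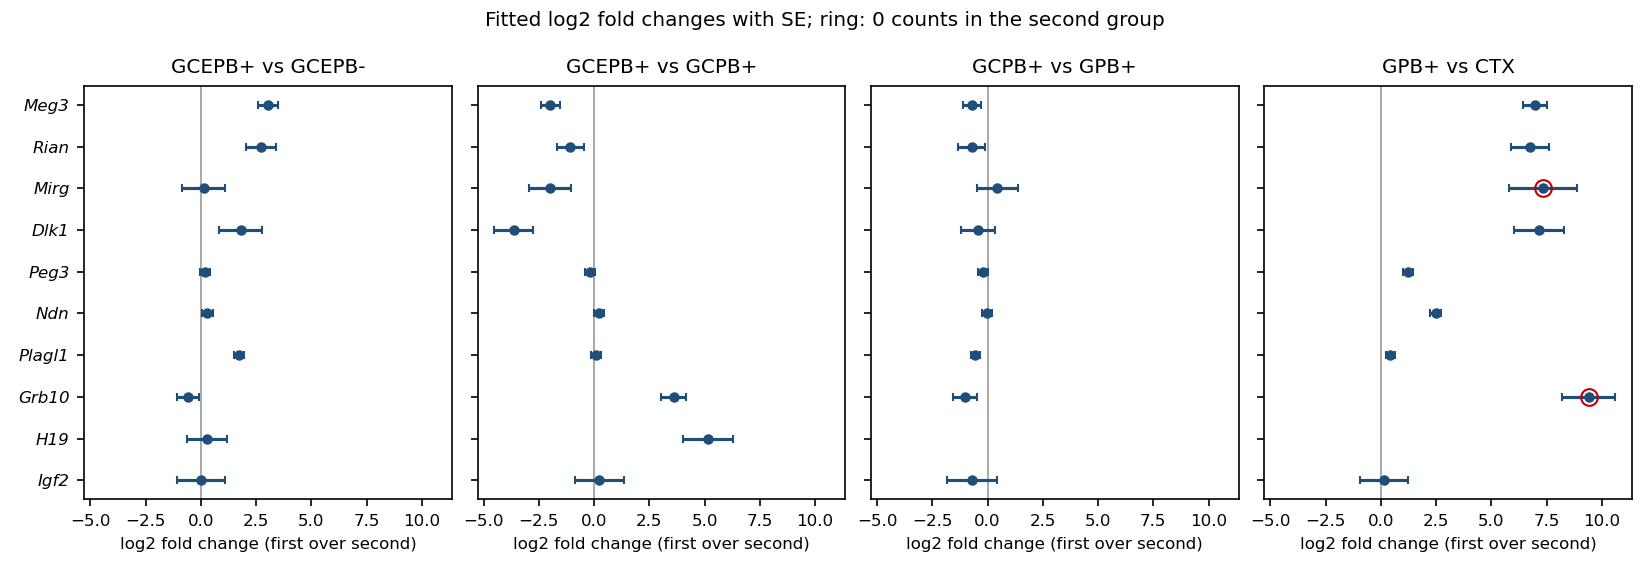
Each panel plots the fitted log2 fold change (x axis, first group over second) of the 10 genes in 1 comparison, with bars for the SE. Rings mark Mirg and Grb10 in GPB+ against CTX, where CTX had 0 counts and the plotted value depends on the prior count and is no bound, and H19 is left out where both groups were at or near the floor. Meg3 lies at 3.05, -1.98, -0.71 and 6.98 from left to right.

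Other imprinted genes, 63 from general knowledge, were tested in the same fit. They were listed with earlier results of these data known, so their shares and p-values are no independent test. Of the 63 genes, 61 were in the count table and 46 passed the count filter. The list was not limited to genes imprinted in the brain, and whether each is imprinted in these cells was not tested. In GCEPB+ against GCEPB-, 7 of the 46 rose and 2 fell, that is 15.2% and 4.35%, against 9.28% and 1.85% of all genes. The median log2 fold change of the list was -0.19, and 0.03 over all genes tested. Rasgrf1, which encodes an exchange factor for Ras, measured 14.1 ± 8.68 CPM in GCEPB+ and 0.540 ± 0.227 CPM in GCEPB- (log2 fold change 4.68 ± 0.46, adjusted p = 2.55e-06). Cd81, a tetraspanin of the cell surface, measured 1645 ± 214 CPM in GCEPB+ and 604 ± 29.6 CPM in GCEPB- (1.44 ± 0.19, adjusted p = 6.39e-05). Nap1l5 (1.03 ± 0.20, adjusted p = 0.00189), Impact, a regulator of translation (0.85 ± 0.17, adjusted p = 0.00243) and Sfmbt2, a polycomb protein (2.08 ± 0.62, adjusted p = 0.0376) rose too. Nnat, a membrane protein of the neural lineage, fell (-0.97 ± 0.27, adjusted p = 0.0271), as did Inpp5f, a phosphoinositide phosphatase (-0.77 ± 0.19, adjusted p = 0.0128). The call of Sfmbt2 was lost without GCEPB+ replicate 2 or 3 or GCEPB- replicate 1 or 2 (adjusted p 0.0893 to 0.151). That of Nnat was lost without GCEPB+ replicate 2 or 3 or any 1 GCEPB- library (0.0511 to 0.1005), and that of Inpp5f without GCEPB+ replicate 2 (0.0549) or GCEPB- replicate 3 (0.0650). The count of rises was 4 without GCEPB- replicate 1, and that of falls was 0 without GCEPB+ replicate 2 or GCEPB- replicate 3 and 1 without GCEPB+ replicate 3 or GCEPB- replicate 1 or 2.

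In GCEPB+ against GCPB+, 7 of the 46 rose and 12 fell, 15.2% and 26.1%, against 18.1% and 18.0% of all genes, with a median of 0.22 in the list and 0.11 over all genes. The largest rise with at least 5 CPM was that of Peg12, a gene of the Ndn region, at 41.6 ± 9.26 CPM in GCEPB+ and 5.35 ± 1.43 CPM in GCPB+ (log2 fold change 2.96 ± 0.47, adjusted p = 0.000118). Peg10, a retrotransposon-derived gene (1.53 ± 0.56, adjusted p = 0.0418), Commd1 (1.23 ± 0.27, adjusted p = 0.00171) and Ppp1r9a, an actin-binding protein (0.96 ± 0.22, adjusted p = 0.00239) rose too. The call of Peg10 was lost without GCPB+ replicate 1 or 2 or GCEPB+ replicate 2 or 3 (adjusted p 0.103 to 0.151) with no count filter (0.0618) and in limma on log2(FPKM + 1), log2(FPKM + 0.1) and unfiltered log2(FPKM + 1) (0.0711, 0.0637 and 0.0770). Rasgrf1 and Cd81 moved opposite to their change against GCEPB-. Rasgrf1 was at 75.7 ± 7.49 CPM in GCPB+ (log2 fold change of GCEPB+ against it -2.43 ± 0.36, adjusted p = 5.94e-05), and Cd81 at 6591 ± 1347 CPM (-2.002 ± 0.195, adjusted p = 8.79e-07). H13, a signal peptide peptidase (-1.59 ± 0.28, adjusted p = 0.000259), Osbpl5, a lipid transfer protein (-1.45 ± 0.38, adjusted p = 0.00669) and Nnat (-1.40 ± 0.27, adjusted p = 0.000743) fell as well, and the call of Osbpl5 was lost in unfiltered limma (-0.74, adjusted p = 0.0787). Nnat thus stood lower in GCEPB+, at 143 ± 9.74 CPM, than in either neighbour, with 280.3 ± 19.6 CPM in GCEPB- and 376 ± 119 CPM in GCPB+. The count of rises was 4 without GCPB+ replicate 1.

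Between GCPB+ and GPB+, edgeR called 0 of the 46 genes, against 0.0307% of all genes, and the median log2 fold change was -0.04 in the list and -0.00 over all genes. At an unadjusted p of 0.05 edgeR counted 3 and DESeq2 3, and DESeq2 and limma on log2(FPKM + 1) called 0 after adjustment.

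In GPB+ against CTX, 5 of the 46 rose and 1 fell, 10.9% and 2.17%, against 4.04% and 2.7% of all genes, with a median of 0.26 in the list and 0.00 over all genes. Mest, an enzyme of the hydrolase family made from the paternal copy, measured 7.48 ± 4.20 CPM in GPB+ and 0.973 ± 0.307 CPM in CTX (log2 fold change 2.97 ± 0.52, adjusted p = 0.00217). Zdbf2 measured 5.17 ± 2.96 CPM in GPB+ and 0.320 ± 0.278 CPM in CTX (4.11 ± 0.82, adjusted p = 0.00557). Cd81 rose less (0.73 ± 0.19, adjusted p = 0.0264), and Gatm, an enzyme of creatine synthesis, fell (-0.81 ± 0.23, adjusted p = 0.0402). The other rises were those of Dio3 (adjusted p = 0.0363) and Snrpn (adjusted p = 0.0146), which lie below 5 CPM and are named after their values were seen. Snrpn had 19 counts in GPB+, and both were at 0 counts in CTX. Snrpn had the other direction on the scale of log2(FPKM + 1), at -0.08, and shares its position with Snurf. The call of Cd81 was lost without CTX replicate 2 or 3 or GPB+ replicate 1 or 2 (adjusted p 0.0561 to 0.129), that of Gatm without CTX replicate 1 or 3 or any 1 GPB+ library (0.0530 to 0.197), that of Dio3 without any 1 CTX library or GPB+ replicate 2 or 3 (0.0725 to 0.125), and that of Snrpn without CTX replicate 3 (0.0667). Unfiltered limma on log2(FPKM + 1) made none of these 6 calls (adjusted p 0.0512 for Gatm to 0.989 for Snrpn). The count of rises was 2 without CTX replicate 3 and 3 without GPB+ replicate 2, and that of falls was 0 without CTX replicate 3 or GPB+ replicate 1 or 2.

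Several imprinted genes named here overlap other genes in their whole spans, introns included: Nnat with Blcap, H13 with Mcts2, Commd1 with Zrsr1, Mest with Copg2, Zdbf2 with Gpr1, Nap1l5 with Herc3, Cd81 with R74862, Igf2r with Airn, Sfmbt2 with 60 rows that are mostly small RNAs, Peg3 with Peg3os and Igf2 with Igf2os. The kit does not mark strand, so reads from a stretch that both transcripts hold cannot be separated. How far the exons of these pairs overlap was not checked.

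**Figure D4:**
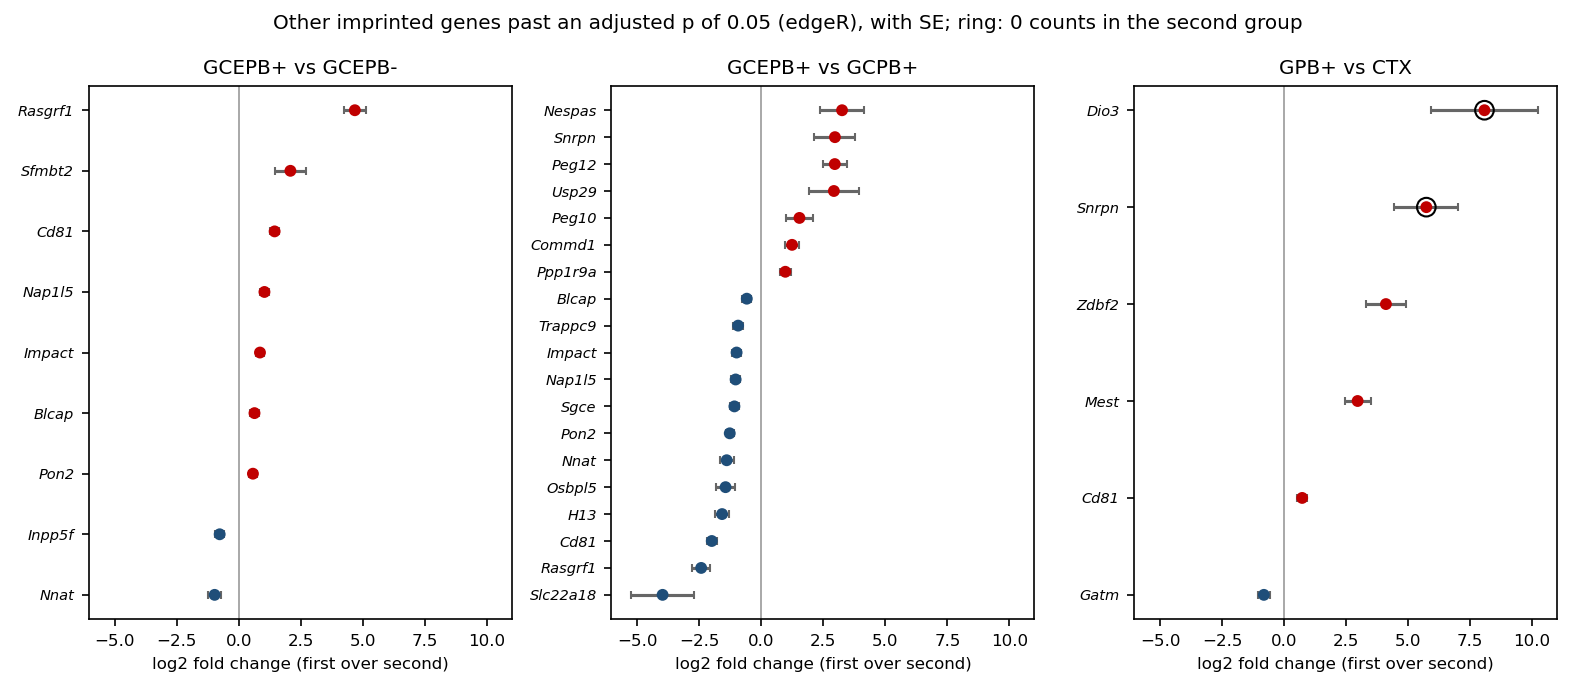
Each panel plots the log2 fold change (x axis, first group over second) with its SE for the other imprinted genes past an adjusted p of 0.05 in edgeR, red where higher and blue where lower in the first group, for the 3 comparisons with any call. Rings mark Dio3 and Snrpn in GPB+ against CTX, where CTX had 0 counts and the plotted value is no bound, and Rasgrf1 lies at 4.68 in the first panel and at -2.43 in the second.

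Genes that keep imprints through cell division formed a second list, of which 8 of 9 were tested and Dppa3 was at 0 in all libraries. It too was chosen with earlier results of these data known, so its shares and p-values are no independent test. In GCEPB+ against GCPB+, 7 of the 8 rose, 87.5%, against 18.1% of all genes, with a median log2 fold change of 1.47 in the list and 0.11 over all genes. Zfp57, a zinc finger protein that binds methylated imprinting control regions, measured 21.1 ± 7.83 CPM in GCEPB+ and 0.439 ± 0.125 CPM in GCPB+ (log2 fold change 5.55 ± 0.79, adjusted p = 3.6e-05). Its level was 54.3 ± 6.35 CPM in GCEPB-, 0.422 ± 0.669 CPM in GPB+ and 0.231 ± 0.200 CPM in CTX. Uhrf1, which brings the maintenance methyltransferase to replicating DNA, measured 209.7 ± 18.9 CPM in GCEPB+ and 6.39 ± 1.13 CPM in GCPB+ (5.05 ± 0.28, adjusted p = 9.24e-09). Dnmt1, that methyltransferase, measured 168 ± 10.9 CPM in GCEPB+ and 29.95 ± 9.85 CPM in GCPB+ (2.49 ± 0.25, adjusted p = 1.12e-06).

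Trim28, the corepressor that Zfp57 recruits (log2 fold change 1.71 ± 0.23, adjusted p = 2.51e-05), Ctcf, the insulator protein (1.23 ± 0.19, adjusted p = 7.85e-05), Smchd1 (0.94 ± 0.24, adjusted p = 0.00511) and the histone methyltransferase Setdb1 (0.92 ± 0.23, adjusted p = 0.00483) rose in the same comparison, and Zfp445 had a value of 0.57 ± 0.22 (adjusted p = 0.0556). The replicate block, which follows the pairing of these libraries, gave 8 of 8. Uhrf1, Dnmt1 and the cell cycle list, of which 12 of 12 rose here, moved together, and the part of cycling in the list was not tested. In GCEPB+ against GCEPB- edgeR called 0 of 8 higher and 1 lower, 12.5%, against 9.28% and 1.85% of all genes. The gene lower was Trim28 (-0.73 ± 0.23, adjusted p = 0.0475), and the median was -0.59 in the list and 0.03 over all genes. That call was lost without GCEPB+ replicate 2 or 3 or any 1 GCEPB- library (0.0650 to 0.201), and the count ran from 0 to 4 across the other fits, with 3 in DESeq2, in alternatives added after seeing the data. In GPB+ against CTX, Dnmt1 (1.14 ± 0.24, adjusted p = 0.00846) and Uhrf1 (2.25 ± 0.30, adjusted p = 0.000189) rose, with a median of 0.41 in the list and 0.00 over all genes, and Dnmt1 had an adjusted p of 0.0537 without CTX replicate 3. Between GCPB+ and GPB+ edgeR called 0 of 8, against 0.0307% of all genes in either direction. At an unadjusted p of 0.05 edgeR counted 1 of the 8, and DESeq2 counted 0 with or without adjustment.

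Among the genes most like Meg3 across the 15 libraries, by Pearson correlation of log2(CPM + 0.5), were Crym (r = 0.96), the matrix protein gene Sparc (0.96), Scrn1 (0.95) and Vipr2, a receptor for vasoactive intestinal peptide (0.94). Crym had the widest range of these, at 44.4 CPM in GCEPB+, 3.42 CPM in GCEPB-, 182 CPM in GCPB+, 631 CPM in GPB+ and 3.76 CPM in CTX. Those most like Dlk1 were the transporter gene Slc5a11 (0.95), Rai2 (0.94), Fam134b (0.93), the glycine transporter gene Slc6a9 (0.93) and Scd2, a fatty acid desaturase (0.92). They were picked from all 16302 genes for their likeness, over libraries that fall into 5 groups.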

How the data were processed

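RNA of sorted cells was amplified from poly(A) tails with an ultra-low-input kit and tagmented, and both ends were sequenced, per the labels' protocols. Without molecular identifiers, intervals and floors reflect counting error alone. The authors deposited raw counts per gene symbol, and FPKM values scaled by them to transcript length and library size, in which the headers of symbol and position were found exchanged. The tools were HTSeq, Cufflinks, cutadapt and TopHat2 2.1, with the mm10 build, per the submitters' processing notes. Annotation, strand setting and treatment of multiple mapping are not given in the sources used here. Gates came from a deposited text table of surface markers, and columns were matched to samples by title.

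The 10 genes and the gene lists were chosen with earlier results of these data known. Of 32763 count rows, 28 named no gene (0.184% to 0.323% of a library's counts) and were left out. Counts were fitted by edgeR's quasi-likelihood test (edgeR 4.0.16, R 4.3.3) over all 15 libraries in 5 groups without covariates, with filterByExpr and TMM factors and Benjamini-Hochberg adjustment over 16302 genes. Each SE was derived by dividing the size of the log2 fold change by the root of its F statistic. Whether the libraries of a group came from separate animals is not stated, so p-values reflect the spread between libraries, which may be technical. No 2 libraries of a group agreed within sampling noise.

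Alternatives were DESeq2 1.42.0 and its size factors, no count filter, a replicate block, limma 3.58.1 on log2(FPKM + 1) or log2(FPKM + 0.1), and leaving out each library. FPKM rows whose symbol recurs (2976) were left out. Of the other imprinted genes, those past the adjusted p with a mean of at least 5 CPM in the higher group were named, at most 5 per direction by size, besides 2 named after their values were seen. All tested genes of the imprint maintenance list were named, and the 5 most like Meg3 and Dlk1, of which 1 is not reported here. Libraries with the same number deviated together in GCEPB+ and GCPB+ (correlation across genes 0.173, 0.119 and 0.177) and in GCPB+ and GPB+ (0.155, 0.116 and 0.234). These numbers were taken as pairing from the data, not from a label. Sequences are from RefSeq, GRCm38.p6, the same assembly as mm10, and 9 of the 10 genes had a promoter there. The fits were tested on simulated counts.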

Additional observations from a re-analysis of the deposited data

How the results depend on the processing

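Depth limits the genes with libraries near the floor: Rian, Mirg, Dlk1, Igf2, H19 and Grb10. Of the leave-one-out values of the 10 genes, 206 moved by less than the spread between libraries and 34 by more. Over all calls of other imprinted genes, leaving out 1 library kept the call in 152 cases and ended it in 52, and the other settings kept it in 214, ended it in 16 and turned the direction in 2. Snrpn in GPB+ against CTX had the other sign in limma on log2(FPKM + 1), at -0.083 with or without a filter. The causes were not tested.

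In GCEPB+ against GCEPB-, the genes lower were 301 in edgeR, 545 in DESeq2, 528 with the replicate block, 696 in limma on log2(FPKM + 1) and 658 with no filter there, and the other imprinted genes lower were 2, and 4 in both of these limma fits. In GCEPB+ against GCPB+, limma on log2(FPKM + 1) called 4505 genes higher and 4462 with no filter, against 2956. In GCPB+ against GPB+, 4 genes were higher in edgeR, 24 in DESeq2, 2 with the block, 1 in limma on log2(FPKM + 1) or log2(FPKM + 0.1) and 2 with no filter. There 1 was lower, 2 with no count filter, 15 in DESeq2, 0 with the block, 0 in both filtered limma fits and 2 in the unfiltered one. In GPB+ against CTX, 658 genes were higher, and 432 in unfiltered limma, while 440 were lower, 758 in DESeq2 and 703 in limma on log2(FPKM + 1). The other imprinted genes higher were 5, 3 in both filtered limma fits and 0 in the unfiltered one, and those lower were 1, 2 in DESeq2 and with the block, and 0 in unfiltered limma. The block ended no call of a named gene.

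With 1 library left out, the counts in GCEPB+ against GCEPB- ranged from 1152 to 1590 genes higher and 120 to 406 lower, and from 4 to 7 and 0 to 2 other imprinted genes. In GCEPB+ against GCPB+ they ranged from 2366 to 2804 and 2495 to 2710, and from 4 to 7 and 10 to 12. In GCPB+ against GPB+ they were 0 to 2 and 0 to 1, with 0 other imprinted genes. In GPB+ against CTX they were 368 to 603 and 217 to 291, and 2 to 6 and 0 to 1.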
